A study of Caenorhabditis elegans with 8 samples.

Results

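The genes for the subunits of the CCAAT-binding transcription factor NF-Y, nfya-1, nfya-2, nfyb-1 and nfyc-1, were followed in RNA recovered with the proteins OMA-1 and LIN-41 from Caenorhabditis elegans females. They were taken by symbol from a table of 16031 genes, and all 4 were in it. The set was chosen by the ratios of nfyc-1, which was high in both immunoprecipitates (IPs), so the IP ratios below are a description of the genes and carry no test of them. Young adults of both strains carried fog-1(q253ts), which feminises the germ line at 25 °C, and had been on food for about 48 h. In 1 strain, oma-1(zu405te33) animals carried the transgene tnIs17, which expresses OMA-1 fused to S, TEV and GFP tags from the oma-1 promoter together with an unc-119(+) gene. In the other, the tags sat at the endogenous locus, lin-41(tn1541). Antibodies to the GFP tag, a mixture of 12A6 and 4C9, gave 2 IP libraries for each protein, and the whole-animal lysate of each strain was sequenced once after removal of ribosomal RNA and once untreated. No library was labelled as an IP from untagged animals, so binding and nonspecific carry-over cannot be told apart. The labels list no depletion for the IPs, so depletion and IP cannot be told apart in ratios to the depleted lysates.

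NF-Y is a trimer. The B and C subunits pair through histone-fold domains, and an A subunit then joins the pair and makes the contact with the CCAAT box in promoters. In worms nfya-1 and nfya-2 both encode A subunits, nfyb-1 the B subunit and nfyc-1 the C subunit, and the complex is known to repress the Hox gene egl-5 and the T-box gene tbx-2 in larvae. OMA-1 and LIN-41 are RNA-binding proteins that control the translation of mRNAs in growing oocytes.

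Only pooled values were analysed here: a log2 ratio that sets each IP over the pooled depleted lysates of the strains, an adjusted p for that ratio, and FPKM, a level scaled to transcript length and library size, for each kind of library. No value therefore has an SD, and the depth per library is unknown. The mean scaled read count over libraries (baseMean) stands for depth. In the authors' deposited table it was 11309 for nfyc-1, 1806 for nfyb-1, 1508 for nfya-2 and 260 for nfya-1, against a median of 44.4 over all genes, so nfya-1 was the least precisely measured subunit. None of the 4 was marked as affected by reads of low mapping quality. Of 8 oocyte markers, 7 were called higher in each IP in the authors' deposited table, the exception being perm-2, where 28.4% (OMA-1) and 27.2% (LIN-41) of all genes tested were called, and of 8 sperm markers 5 were not listed. The 3 listed sperm markers summed to 1.83 FPKM in the lysates. Intestine markers summed to 1887 FPKM in the lysates and 469 (OMA-1) and 640 (LIN-41) in the IPs, and body wall muscle markers to 834, 455 and 228 FPKM, and none of these 11 genes was called higher. The sum of the neuron markers went the other way, from 90.4 FPKM in the lysates to 154 (OMA-1) and 141 (LIN-41) in the IPs. Of these genes, 1 of 5 was called with OMA-1 and 2 of 5 with LIN-41. In the authors' deposited table rab-3 was called in both, at a log2 ratio of 2.19 with OMA-1, and snb-1 in the LIN-41 IPs, at 0.78. The same source lists unc-119, a gene also present in tnIs17, at 17.7 FPKM in the lysates. It stood at 67.1 FPKM with OMA-1, not called (adjusted p = 0.0585), and 18.4 FPKM with LIN-41. The part of the transgene was not tested. Log2 ratios of unc-13 and ric-19 were below 0 in both IPs (-2.07 and -1.51 with OMA-1, -0.46 and -0.29 with LIN-41). A gene's ratio to a whole-animal lysate also depends on how much of its RNA lies in tissues without the tagged protein, and its part in the ratios was not tested. In these bulk lysates fewer cells of a type and less RNA per cell cannot be told apart.

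The mRNA of nfyc-1 was far higher in both IPs than in the lysates. In the authors' deposited table nfyc-1 (WBGene00017742, chromosome II 43907 to 44917 on the plus strand, WBcel235) had 42.7 FPKM in the depleted lysates, 1604 FPKM with OMA-1 and 2243 FPKM with LIN-41. The log2 ratios, 5.22 with OMA-1 and 5.70 with LIN-41, are 37.3-fold and 52.2-fold, and the authors' deposited table listed both adjusted p-values as 0. Under equal FPKM totals, a scaling alternative, these log2 ratios were 3.89 and 4.75. By these ratios nfyc-1 ranked 106 of 15742 genes tested with OMA-1 and 18 of 13955 tested with LIN-41, and after quantile normalization at 413 and 39. Only W08E12.6, named here after its values were seen, was at least as high in both, and it had 0.08 FPKM in the lysates in the authors' deposited table. By FPKM nfyc-1 ranked 2126 of 16031 genes in the lysates, 77 in the OMA-1 IPs and 22 in the LIN-41 IPs.

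The B subunit mRNA, whose protein pairs directly with that of nfyc-1, was higher in both IPs by a smaller amount. The nfyb-1 gene (WBGene00021132, chromosome II 461667 to 467365 on the minus strand) had, in the authors' deposited table, 25.6 FPKM in the lysates, 104 FPKM with OMA-1 and 192 FPKM with LIN-41. The authors' deposited table gave log2 ratios of 2.02 with OMA-1 (adjusted p = 2.02e-73) and 2.90 with LIN-41 (adjusted p = 5.73e-152). This put nfyb-1 at rank 2322 with OMA-1 and 462 with LIN-41. On the log2 scale nfyc-1 stood 3.21 above nfyb-1 with OMA-1 and 2.81 above it with LIN-41.

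The A subunit mRNAs were unlike each other. Of these, nfya-2 (WBGene00043056, chromosome I 11224836 to 11233332 on the plus strand) had, in the authors' deposited table, 15.5 FPKM in the lysates, 258 FPKM with OMA-1 and 66.5 FPKM with LIN-41. The authors' deposited table gave log2 ratios of 4.05 with OMA-1 (adjusted p = 1.56e-214) and 2.10 with LIN-41 (adjusted p = 4.54e-54), at ranks 496 and 1032. The other A gene lay nearer to its lysate level. For nfya-1 (WBGene00011614, chromosome X 11944285 to 11946838 on the minus strand) the authors' deposited table gave 9.41 FPKM in the lysates, 15.1 FPKM with OMA-1 and 10.1 FPKM with LIN-41. The authors' deposited table called it higher with OMA-1, at 0.68 on the log2 scale (adjusted p = 0.000536), and not with LIN-41, at 0.11 (adjusted p = 0.732). It was the only subunit whose sign depended on the scaling: with FPKM columns scaled to equal totals nfya-1 had log2 ratios of -0.66 and -0.85. In all, the authors' deposited table called 4 of 4 subunits higher with OMA-1, where 28.4% of genes tested were called, and 3 of 4 with LIN-41, where 27.2% were called. Since the subunits were chosen with these ratios known, nothing is read from those counts.

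**Figure D1:**
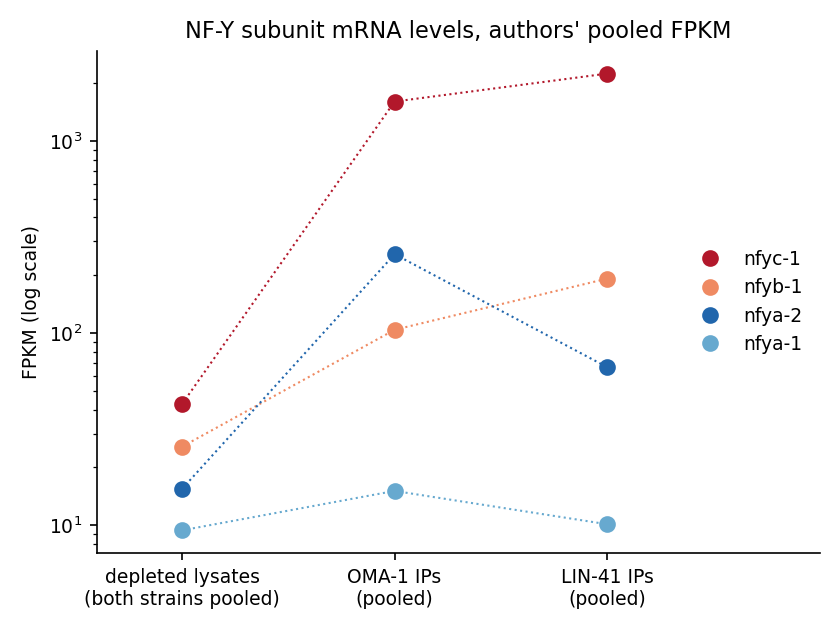
Pooled FPKM (log axis) of the 4 NF-Y subunit mRNAs by kind of library (depleted lysates, IPs of OMA-1 and of LIN-41); each point is 1 pooled value without error, and dotted lines join the points of a gene. The subunits lie between 9.41 and 42.7 FPKM in the lysates and between 10.1 and 2243 FPKM in the LIN-41 IPs, and nfya-2 and nfyb-1 change places between the IPs.

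The balance of the subunit mRNAs thus differed between the lysates and the IPs. From FPKM values in the authors' deposited table, the highest subunit (nfyc-1) stood 4.54-fold above the lowest (nfya-1) in the lysates, 106-fold in the OMA-1 IPs and 222-fold in the LIN-41 IPs. Of the summed FPKM of the 4 genes, nfyc-1 made up 45.8% in the lysates, 81.0% in the OMA-1 IPs and 89.3% in the LIN-41 IPs. The share of nfyb-1 was 27.5%, 5.25% and 7.65% in the same order. For nfya-2 it was 16.6%, 13% and 2.65%, and for nfya-1 it was 10.1%, 0.762% and 0.403%. Between the histone-fold partners, nfyc-1 exceeded nfyb-1 by 1.67-fold in the lysates, 15.4-fold with OMA-1 and 11.7-fold with LIN-41. Between the A subunits, nfya-2 exceeded nfya-1 by 1.64-fold, 17.1-fold and 6.57-fold.

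The genes also leaned to different IPs. The OMA-1 minus LIN-41 difference of the log2 ratios, in which the shared lysates cancel, was positive for both A subunits and negative for the B and C subunits. It was 1.95 ± 0.186 (approximate SE) for nfya-2, a level 3.86-fold higher with OMA-1, and 0.57 ± 0.268 for nfya-1. The difference was -0.88 ± 0.156 for nfyb-1, which was 1.84-fold higher with LIN-41, and -0.48 for nfyc-1, which was 1.40-fold higher with LIN-41. For nfyc-1 the listed p of 0 allowed only an upper limit of 0.207 on the SE. Over 13955 genes tested in both comparisons the median difference was -0.03, and 5% of genes lay below -1.68 and 5% above 2.43. Thus nfya-2 stood higher than 91.2% of these genes, nfya-1 than 68.8%, nfyc-1 than 31.9% and nfyb-1 than 18.7%. The SEs were worked back from the deposited adjusted p and count the spread of the lysates, which cancels here. With equal FPKM totals, which move the difference of every gene by the same amount, it became 0.19 for nfya-1, less than its SE. It became -0.86 for nfyc-1 and -1.26 for nfyb-1, and the median over all genes became -0.41. Quantile normalization gave -1.11 for nfyc-1, -1.42 for nfyb-1 and 1.35 for nfya-2, beside a median of -0.16 over all genes. All 4 genes kept their sign under both scalings.

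**Figure D2:**
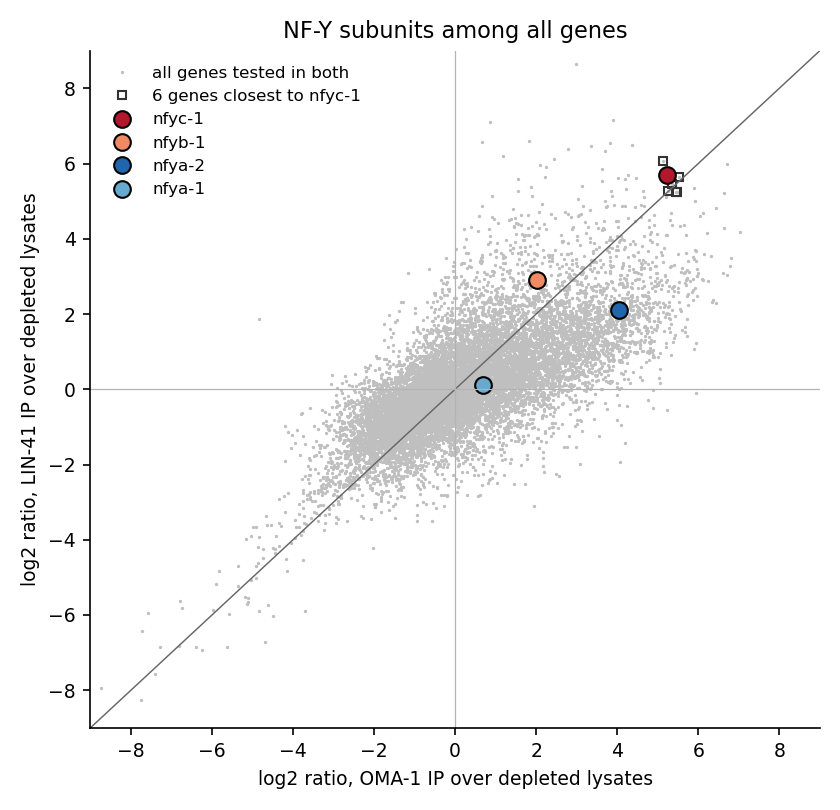
Deposited log2 ratios over the depleted lysates with OMA-1 (x axis) and LIN-41 (y axis) for 13955 genes tested in both (grey), with the NF-Y subunits (filled circles), the 6 genes closest to nfyc-1 (open squares) and the line of equal ratios. The nfyc-1 point (5.22, 5.70) lies at the upper right edge, nfyb-1 lies above the line, and nfya-2 and nfya-1 lie below it.

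Other measurements that did not enter the choice of the genes were then compared. A previous study's OMA-1 IP was also set over lysate. The lysates may be the same ones, so its denominator cannot be taken as independent, and no p was given for it. Its log2 ratios in the authors' deposited table were 5.64 for nfyc-1, 4.92 for nfya-2, 2.43 for nfyb-1 and 1.18 for nfya-1, the order of the present OMA-1 IPs. Each was above the present value, by 0.42 for nfyc-1, 0.88 for nfya-2, 0.41 for nfyb-1 and 0.50 for nfya-1. Over 6768 genes with a baseMean of at least 100 the median of that shift was 0.13, and over the 3324 of them with a present log2 ratio above 0.5, as all 4 subunits had, it was 0.28.

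Dissected gonads of another study showed the subunit mRNAs in a different order. Spermatogenic fem-3(q96gf) gonads had been compared with oogenic fog-2(q71) gonads, and negative log2 ratios mean more RNA in oogenic gonads. The ratio of nfya-1 was -4.98 in the authors' deposited table (adjusted p = 5.21e-85), a level 31.7-fold higher in oogenic gonads. This was rank 303 of 14888 genes ordered from the most oogenic. The log2 ratio of nfyb-1 in the authors' deposited table was -1.67 (adjusted p = 1.76e-31), 3.18-fold higher in oogenic gonads. For nfyc-1 the authors' deposited table gave -0.41 (adjusted p = 0.000397), 1.33-fold higher in oogenic gonads. The nfya-2 ratio in the authors' deposited table was -0.35 and did not pass (adjusted p = 0.141). Thus 3 of 4 subunits were called higher in oogenic gonads, where 28.2% of genes tested were called in that direction and 27.6% in the other. The subunit with the strongest oogenic bias, nfya-1, was the lowest of the 4 in both IPs, and nfyc-1, the highest in both, differed little between the gonads.

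**Figure D3:**
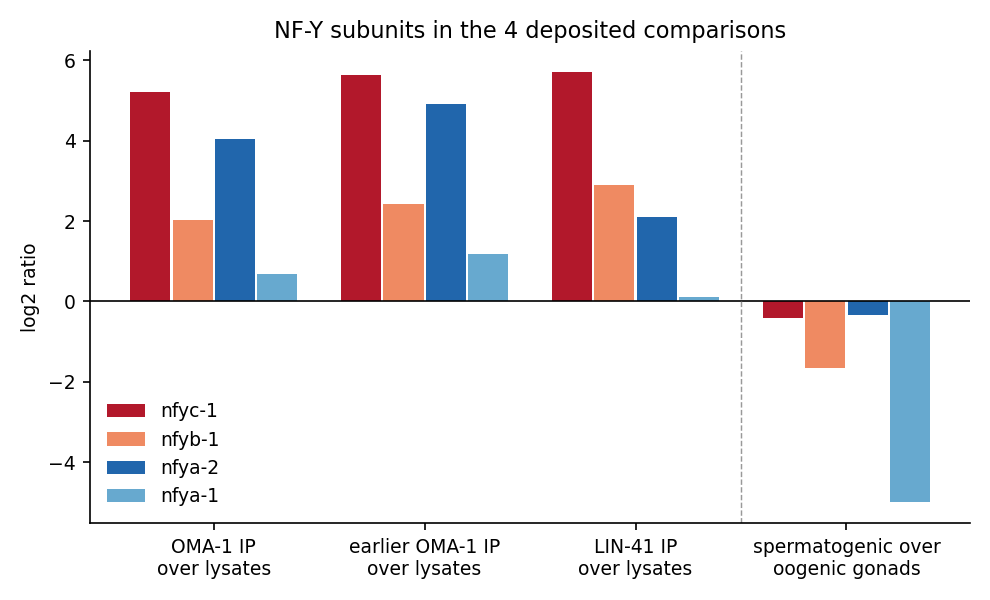
Deposited log2 ratios of the 4 subunits (bars, no error available) in the OMA-1 IP, the earlier OMA-1 IP and the LIN-41 IP over lysates, and in spermatogenic over oogenic gonads of another study, right of the dashed line. nfyc-1 has the tallest bar in each IP, from 5.22 to 5.70, and nfya-1 the longest bar in the gonads, at -4.98.

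The position of the genes and their annotated transcripts were read from the Ensembl annotation of the same build. The nfyc-1 gene spans 1011 bp and lies whole inside a 2449 bp intron of rpt-4, a proteasome ATPase gene on the other strand, with 0 bp shared between their exons. The next gene on its own strand, rpoa-49, which encodes an RNA polymerase I subunit, starts after a gap of 122 bp. Neither shared its ratios. For rpt-4 the authors' deposited table gave log2 ratios of -1.18 (OMA-1) and -0.66 (LIN-41). The authors' deposited table gave rpoa-49 0.20 with OMA-1 (adjusted p = 0.289) and 0.94 with LIN-41 (adjusted p = 1.54e-09). The other genes within 3000 bp, F23F1.10 and C23H3.5, had log2 ratios of 1.64 and 0.53 with OMA-1 and 0.54 and -0.01 with LIN-41 in the authors' deposited table. Both were called higher with OMA-1 there (adjusted p = 5.08e-12 and 0.00107). With LIN-41 F23F1.10 was called narrowly (adjusted p = 0.0499) and C23H3.5 was not called. Around nfya-1 the pattern was turned round: lsd-1, a histone demethylase gene 2005 bp away on the other strand, had log2 ratios of 5.44 with OMA-1 and 5.24 with LIN-41 in the authors' deposited table. The 5 listed genes within 3000 bp of nfyb-1 or nfya-2 had log2 ratios from -0.93 to 0.25 in the authors' deposited table, with adjusted p-values of 0.280 or more.

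**Figure D4:**
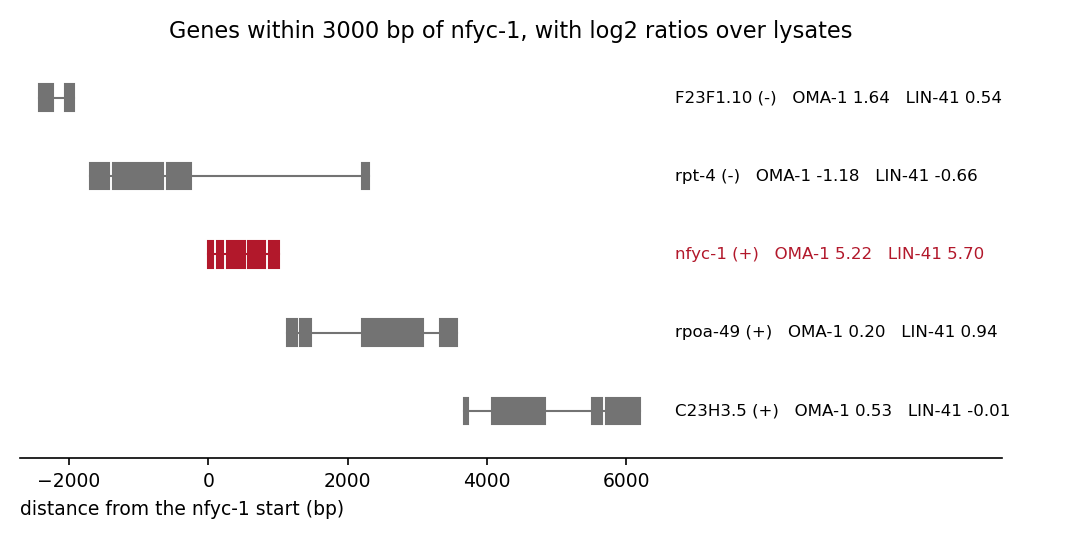
Exon models (boxes) and introns (lines) of genes within 3000 bp of nfyc-1 by distance from its start in bp, with strand and deposited log2 ratios at the right. nfyc-1 lies in an intron of rpt-4, and its ratios of 5.22 and 5.70 stand above those of its neighbours, which run from -1.18 to 1.64.

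The transcripts also differed in their annotated 3′ untranslated regions (UTRs), the part of an mRNA where OMA-1 and LIN-41 are known to act. The longest annotated 3′ UTR measured 68 bp for nfyc-1 and 83 bp for nfya-2, against 346 bp for nfyb-1 and 319 bp for nfya-1. The median over 13729 genes of the table with such an annotation was 149 bp. It was 189 bp over genes called higher with OMA-1 and 211 bp over those called with LIN-41. The subunits with the highest OMA-1 ratios thus had the short annotated 3′ UTRs, but with LIN-41 nfyb-1, with the longest, stood above nfya-2. Of all these genes, 18.0% had a 3′ UTR no longer than that of nfyc-1 and 25.0% no longer than that of nfya-2. The longest coding regions stood for proteins of 232 residues (nfyc-1), 281 (nfya-2), 403 (nfyb-1) and 482 (nfya-1).

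Genes with ratios like those of nfyc-1 were sought by Euclidean distance over both deposited log2 ratios, among 6767 other genes with a baseMean of at least 100. The 6 closest were H25P19.1 (distance 0.286), impt-1 (0.317), the cell cycle phosphatase gene cdc-25.3 (0.384), the ubiquitin ligase adaptor gene zif-1 (0.433), F08F3.6 (0.516) and lsd-1 (0.517). The next, pup-3, lay at 0.581. All 6 were called higher in oogenic gonads in the authors' deposited table, at log2 ratios from -1.69 for impt-1 to -9.03 for cdc-25.3, beside -0.41 for nfyc-1. Of all genes tested 28.2% were called in that direction, and the median over 3067 genes called higher in both IPs was -0.53.

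Other genes of the pathway did not share the nfyc-1 level. Genes linked to NF-Y in worms were its targets egl-5 and tbx-2 and mes-2, mes-3 and mes-6, which encode a Polycomb-like complex of the germ line. Of these, 3 of 5 passed in the authors' deposited table as higher with OMA-1, with a median log2 ratio of 0.71, and 1 of 5 with LIN-41, with a median of 0.20. Over all genes tested, 28.4% and 27.2% were called and the medians were -0.09 and -0.04. The highest with OMA-1 was tbx-2, which the authors' deposited table lists at 2.31, and the highest with LIN-41 was mes-6, at 0.90. The lowest in both was mes-2, at -0.64 and -0.70 in the authors' deposited table. For egl-5 the authors' deposited table listed 0.34 FPKM in the lysates, and it was called in neither IP. With equal FPKM totals the medians of these 5 genes turned to -0.62 and -0.75. That setting moves every gene by the same amount, and the medians over all genes became -1.42 and -0.996.

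Genes of TFIID, the general factor that binds core promoters, encode histone-fold proteins as nfyb-1 and nfyc-1 do. Of these, 7 of 11 passed in the authors' deposited table as higher with OMA-1 and 5 of 11 with LIN-41, at median log2 ratios of 0.91 and -0.000918, beside 28.4% and 27.2% of all genes tested. The highest with OMA-1 was taf-11.3, at 4.65 in the authors' deposited table, and the highest with LIN-41 was taf-11.2, at 3.62. The lowest in both was taf-6.1, at -0.79 and -0.83 in the authors' deposited table. None of the 11 reached the nfyc-1 ratio in either IP. Both medians lay below 0 under equal totals (-0.43 and -0.95) and under quantile normalization (-0.02 and -0.21). Over all genes the medians were -1.42 and -0.996 under equal totals, and -0.19 and -0.08 under quantile normalization. The TFIID medians thus stayed above those of all genes, except with LIN-41 under quantile normalization.

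Transcription factors and cofactors supplied by the mother to the embryo were compared last. Calls of higher RNA in the authors' deposited table covered 6 of 8 in the OMA-1 IPs and 5 of 8 in the LIN-41 IPs, at median log2 ratios of 1.60 and 0.49. Of all genes tested 28.4% and 27.2% were called, at medians of -0.09 and -0.04. The Notch pathway factor gene lag-1 was highest with OMA-1, at 4.03 in the authors' deposited table, close to nfya-2. The caudal homologue pal-1 was highest with LIN-41, where the authors' deposited table listed it at 2.10, again close to nfya-2. The lowest were sys-1 with OMA-1, at -0.44, and, for LIN-41, pop-1, at -0.37 in the authors' deposited table. The LIN-41 median turned negative with equal totals (-0.46) and with quantile normalization (-0.07), while the OMA-1 median stayed above 0 (0.27 and 0.47). The LIN-41 medians over all genes were -0.996 and -0.08 under these settings, and the OMA-1 medians -1.42 and -0.19.

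**Figure D5:**
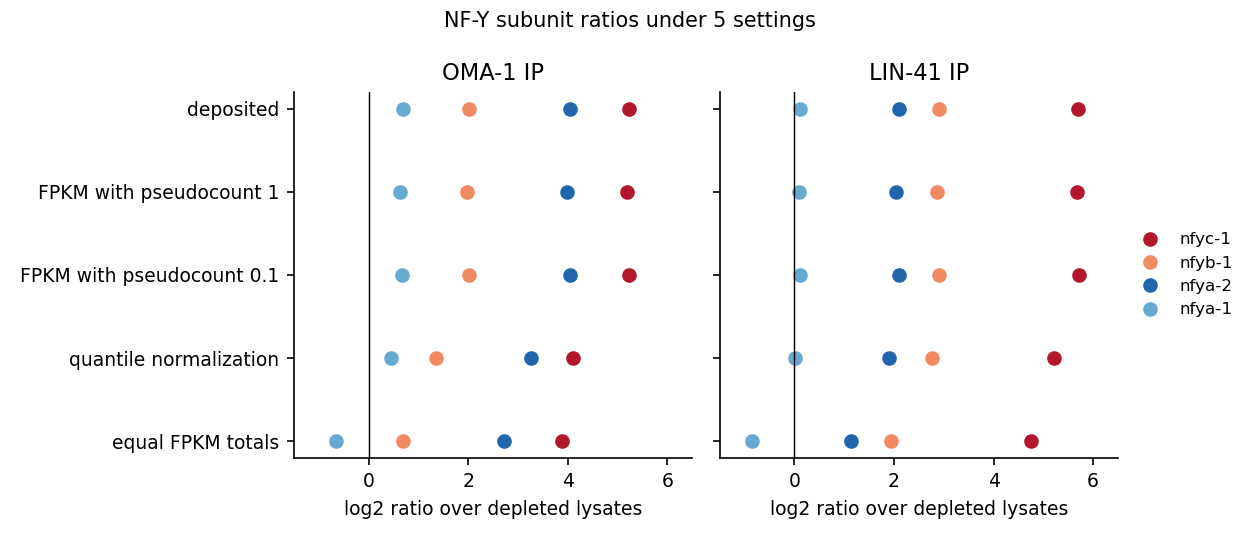
Log2 ratios of the 4 subunits over the depleted lysates with OMA-1 (left) and LIN-41 (right) as deposited and under 4 alternatives; each point is 1 pooled value. The order of the subunits is the same in every row of a panel, and only nfya-1 crosses 0, with equal FPKM totals.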

How the data were processed

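RNA-seq covered 8 libraries in 6 groups, taken from titles. Per the submitters' processing notes, the build was WBcel235 and the tools included DESeq2 1.12.3, STAR 2.4.2a, SAMtools 1.0 and Trimmomatic 0.32, without a stated role. For the counter, the annotation and strandedness, the sources used here give nothing. The authors deposited log2 ratios over the depleted lysates of both strains, adjusted p-values, pooled FPKM values and baseMean, the signal per gene as a mean of scaled reads, per the file headers. The adjusted p was 1 for each gene that did not exceed a log2 ratio of 0 (8208 with OMA-1, 7187 with LIN-41), so the deposited test looked for enrichment only. Calls use that p below 0.05. Counts per library, which the planned edgeR fit needed, were not analysed here, so no test was run. Sequence motifs were not analysed here. A further 4 value columns, taken from other studies, were left out.

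Computed here, with Python 3.11.15, pandas 2.3.3, numpy 2.4.6 and scipy 1.17.1, were ranks, differences, distances and FPKM shares. Approximate SEs came from undoing the Benjamini-Hochberg steps, converting p to a one-sided z and dividing the log2 ratio by it, which was tested on simulated data. Equal totals left out genes of the mitochondrial genome and moved every ratio by -1.33 (OMA-1) or -0.95 (LIN-41). Quantile normalization gave the 3 FPKM columns a common distribution. Gene models came from Ensembl release 115, which held 15914 of 16031 gene IDs. Named genes were the subunits, the highest and lowest of each list, and the 6 nearest to nfyc-1; genomic neighbours and W08E12.6 were added after values were seen. The subunits and lists were chosen with earlier results of these data known. The labels do not say whether IP libraries came from separate cultures, so the deposited p-values measure a spread that may be technical.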

Additional observations from a re-analysis of the deposited data

How the results depend on the processing

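No paired analysis was possible because values per numbered library were not analysed here, and for the same reason no library could be left out in turn. Equal FPKM totals reversed nfya-1 to -0.66 with OMA-1 and -0.85 with LIN-41, because that setting moves every ratio down by a constant. They moved the OMA-1 minus LIN-41 difference to 0.19 (nfya-1), 1.57 (nfya-2), -1.26 (nfyb-1) and -0.86 (nfyc-1), and its median over all genes to -0.41. Quantile normalization moved it to 1.35 (nfya-2), -1.42 (nfyb-1) and -1.11 (nfyc-1); the cause was not tested. It moved the distance of nfyc-1 above nfya-1 to 3.66 with OMA-1 and 5.20 with LIN-41, above nfya-2 to 0.86 and 3.32, and above nfyb-1 to 2.76 and 2.45. No other subunit ratio, difference or distance changed sign, while medians of the 3 gene lists did, as given with them. After quantile normalization nfyc-1 was still the highest subunit in both IPs. Pseudocounts of 1 and 0.1 FPKM, an adjusted p below 0.01 and a baseMean of at least 10 left each of their 56 values on its side of the threshold, or within the SE or 1.5 times its count. No result can be judged against the spread between libraries, and depth limits nfya-1 most.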
